A study of Mus musculus with 8 samples.

Results

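The 10 genes described here are the 2 corticosteroid receptor genes, Nr3c1 and Nr3c2, and 8 genes known to respond to glucocorticoids (Fkbp5, Sgk1, Tsc22d3, Ddit4, Cdkn1a, Mt1, Mt2 and Zbtb16). They were taken by symbol from the 55536 genes of a count table of adult mouse frontal cortex, and each had a row of its own. The table held 8 libraries of total RNA depleted of ribosomal RNA, from mice 8 weeks old. The 4 WT libraries, listed below as WT replicates 1 to 4, came from animals with an intact HAR123, a conserved enhancer whose sequence changed rapidly in the human lineage. The other 4 libraries came from HAR123-KO mice, in which the mouse HAR123 sequence was removed from the germline with CRISPR-Cas9 and a pair of guides in C57BL/6J zygotes, so that the deletion was present in all cell types of the animal. Both groups shared the C57BL/6J background, and per the study the WT controls were littermates. The labels name no stressor and no hormone treatment in either group. The labels do not say that each library is a separate animal, and p-values therefore measure the spread between these libraries, which may be partly technical.

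Glucocorticoids cross the cell membrane and bind the glucocorticoid receptor (Nr3c1) or, with higher affinity, the mineralocorticoid receptor (Nr3c2), which wait in the cytoplasm in complexes with heat shock proteins and immunophilins. The bound receptor moves to the nucleus and raises or lowers transcription of target genes, many of which hold a palindromic response element. In the brain the set of targets includes a feedback inhibitor of the receptor, kinases, transcription regulators and metallothioneins, and their RNA is often read as a record of recent hormone exposure, although most of them also answer to other signals.

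Library totals lay between 13528251 and 17051001 counts, of which Gm42418, a gene overlapping ribosomal RNA sequence, held 55.1% to 58.0%. Nuclear protein-coding genes received 2786320 to 3732172 counts, and the 10 genes together 1863 to 2398. No 2 libraries agreed within sampling noise, and over all counts no library stood apart from its group. Markers of cortical projection neurons (6 of 6 genes detected), neurons, astrocytes and oligodendrocytes were abundant in all 8 libraries, as the tissue label requires. Markers of neighbouring tissue moved with the genotype. Summed choroid plexus markers (11 genes, led by Ttr) gave 95.7 to 106 normalized counts per WT library and 747.5 to 776 in HAR123-KO. Summed markers of striatal projection neurons (9 genes) gave 4307 to 4448 and 5714 to 5886. The part that these differences play in the results below was not tested, other than by the ratios to cell type markers given with Mt2, Mt1, Sgk1 and Tsc22d3. In bulk tissue, fewer cells of a type and less RNA per cell cannot be told apart. Smg6, the gene whose intron hosts the element, differed by 0.05 ± 0.09 on the log2 scale (SE, adjusted p = 0.964 in DESeq2), and since its exons were not the target this does not check the labels.

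A pair of regulatory sequences bears on these genes, the glucocorticoid response element and the metal response element, and the 3 stretches below are promoters of genes that were separate between genotypes and held such matches. They come from RefSeq windows on GRCm38.p6 that reach from 250 bases before to 50 after a transcript start, and were cut so that they hold no annotated exon of the gene. The Sgk1 stretch precedes an internal start and lies within the gene as annotated, since longer transcripts begin further upstream. Entries matched 8 of the 10 genes, in 16 windows. Nr3c1 and Zbtb16 were not matched. All 3 are on the + strand, at chr8:94172368-94172617 for Mt2, chr8:94178839-94179081 for Mt1 and chr10:21993640-21993889 for Sgk1. Capitals mark the metal response element in Mt2 and Mt1 and the glucocorticoid response element in Sgk1.

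Mt2: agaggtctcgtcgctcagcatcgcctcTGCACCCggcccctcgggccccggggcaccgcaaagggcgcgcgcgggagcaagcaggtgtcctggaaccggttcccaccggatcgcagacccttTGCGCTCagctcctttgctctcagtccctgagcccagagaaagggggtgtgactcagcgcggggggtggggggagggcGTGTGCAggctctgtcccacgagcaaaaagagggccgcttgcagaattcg
Mt1: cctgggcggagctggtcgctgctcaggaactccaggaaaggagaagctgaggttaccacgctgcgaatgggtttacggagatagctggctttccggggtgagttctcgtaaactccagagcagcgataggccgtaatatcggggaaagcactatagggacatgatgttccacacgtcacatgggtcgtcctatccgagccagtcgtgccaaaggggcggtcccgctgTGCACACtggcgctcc
Sgk1: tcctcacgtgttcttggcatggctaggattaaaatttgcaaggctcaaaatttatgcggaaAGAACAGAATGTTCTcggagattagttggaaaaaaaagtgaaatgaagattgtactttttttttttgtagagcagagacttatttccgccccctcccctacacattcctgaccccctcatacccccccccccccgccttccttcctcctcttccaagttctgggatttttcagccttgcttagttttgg

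The metal response element was searched as TGCACNC or TGCGCNC on both strands. It was present at least once in 25.7% of all 32851 promoter windows, so that a single match says little. The whole Mt2 window held 4 matches, of which 3 lie in the printed stretch, and 0.517% of windows held that many. The Mt1 window held 3, of which 1 is printed and the others lie after the annotated start, and 1.97% of windows held 3 or more. The palindrome searched as AGAACA, any 3 bases and then TGTTCT was found in 1 of the 6 Sgk1 windows, starting 189 bases before the transcript start, and in 3 of the 32851 windows (0.00913%). Its left arm, AGAACA, was present in 19% of windows on either strand, and among the 8 members searched in windows of Sgk1 and Tsc22d3. These matches are descriptions of letters and no measure of binding.

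Across the 10 genes, the HAR123-KO cortex differed from WT clearly in 1, Mt2, which was lower. Sgk1 and Tsc22d3 were higher, and Mt1 lower, in each HAR123-KO library than in each WT library, by amounts that did not pass the adjustment over all genes. Both receptors, Fkbp5, Ddit4, Cdkn1a and Zbtb16 overlapped between genotypes. A gene was called when its DESeq2 adjusted p was under 0.05 and its log2 fold change exceeded 0.5 in size. Of the 10, 0 met both limits, where 0.298% of the 12758 genes with an adjusted p did (0.227% higher and 0.0705% lower in HAR123-KO). In edgeR 0 of the 10 met them, beside 0.503% of all genes tested. Mt2 met the first limit and had a log2 fold change of -0.4998. By adjusted p alone, 1 of 10 passed in DESeq2, edgeR and limma-voom each, against 1.69% of all genes in DESeq2. At an unadjusted p under 0.05 there were 4 in DESeq2 and 4 in edgeR, against 8.78% and 12.8% of all genes. The groups did not overlap in 4 of the 10, as in 7.21% of the 14464 genes that averaged 10 or more normalized counts (3.77% higher and 3.44% lower). The directions were evenly divided, with 5 log2 fold changes above 0 and 5 below, and a median of 0.002 beside -0.001 over all genes.

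**Figure D1:**
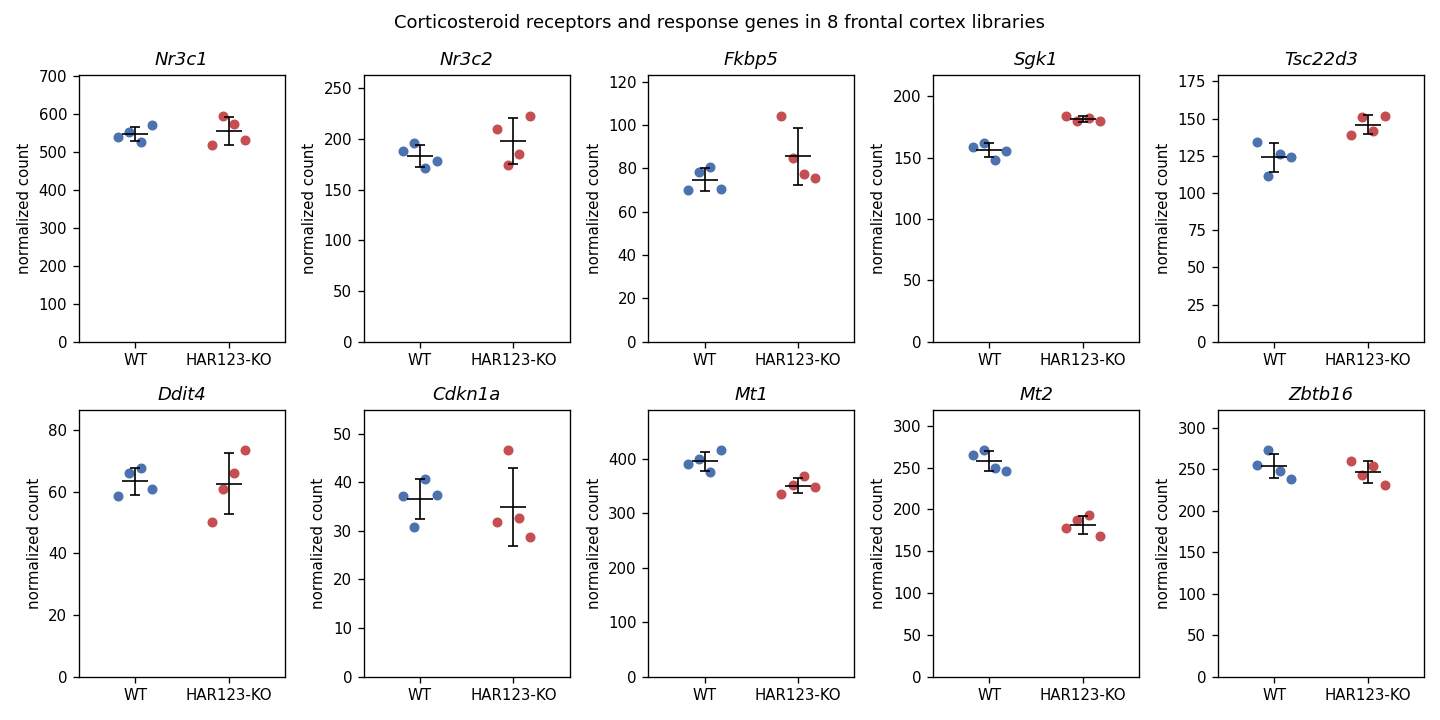
Normalized counts (vertical axis, from 0) of the 10 genes in each library; points are the 4 WT (blue) and 4 HAR123-KO (red) libraries in replicate order, bars are the mean ± SD. The groups are separate for Mt2, Mt1, Sgk1 and Tsc22d3 and overlap for the other 6 genes.

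The receptors themselves showed no detectable difference between genotypes. Nr3c1 (ENSMUSG00000024431, chromosome 18, 39410545 to 39519421, - strand, GRCm38) encodes the glucocorticoid receptor. It had 540.4, 552, 525 and 571 normalized counts in WT replicates 1 to 4 and 519, 596, 574 and 531 in HAR123-KO replicates 1 to 4. The HAR123-KO libraries held both the lowest and the highest of the 8 values. The log2 fold change was 0.02 ± 0.06 (SE, adjusted p = 0.984), with a 95% interval of -0.09 to 0.14. Nr3c2 (ENSMUSG00000031618, chromosome 8, 76899442 to 77245012, + strand) encodes the mineralocorticoid receptor, which is most abundant in hippocampus and is also found in cortical neurons. Its values were 188, 197, 171 and 179 in WT and 209.9, 174, 186 and 223 in HAR123-KO. Replicates 1 and 4 of HAR123-KO lay above all WT libraries and the other two lay among them. On the log2 scale the difference was 0.11 ± 0.10 (SE, adjusted p = 0.875), with an interval of -0.08 to 0.30. The value ran from 0.05 without HAR123-KO replicate 4 to 0.17 without HAR123-KO replicate 2. Counts of Nr3c2 can include reads of Gm10649, an opposite-strand RNA that shares 247 exon bases and had 56 counts over all libraries.

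The balance of the 2 receptors was taken as the ratio of their counts per kb of exon within a library, a value that no scaling of libraries can change. Nr3c1 exceeded Nr3c2 in all 8 libraries. The ratio was 2.42, 2.36, 2.59 and 2.69 in WT and 2.08, 2.89, 2.60 and 2.002 in HAR123-KO. The HAR123-KO libraries spread beyond the WT range on both sides, with an SD of 0.423 against 0.151. On the log2 scale the difference was -0.09 (two-sided exact permutation p = 0.543, adjusted over 2 ratios 0.543). It moved with single libraries, to -0.182 without HAR123-KO replicate 2, -0.133 without HAR123-KO replicate 3, -0.0257 without HAR123-KO replicate 1, -0.0534 without WT replicate 4 and -0.00648 without HAR123-KO replicate 4 (exact permutation p from 0.200 to 1 over all leave-outs).

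Upstream of the receptors, the enzymes and transporters that set how much hormone reaches them did not pass the test. Of 7 such genes, 5 averaged 10 or more normalized counts and 0 had an unadjusted DESeq2 or edgeR p under 0.05. Hsd11b1, which regenerates active corticosterone inside cells, had 32.9 ± 8.67 normalized counts in WT against 41.5 ± 6.01 in HAR123-KO (SD, n = 4) and a log2 fold change of 0.36 ± 0.22 (SE, adjusted p = 0.722). H6pd, which supplies its cofactor, differed by 0.30 ± 0.19 on the log2 scale, the drug efflux pump gene Abcb1a -0.21 ± 0.16, and the steroid reductase gene Srd5a1 -0.20 ± 0.23 (SE). Hsd11b2, which inactivates the hormone, and Serpina6, which encodes the plasma carrier, had no counts in any library. Of the 8 genes of the corticotropin-releasing hormone system, 3 reached the mean of 10. Their log2 fold changes were -0.55 ± 0.43 for Crh, -0.22 ± 0.16 for its receptor Crhr1 and -0.00 ± 0.21 for the binding protein Crhbp (SE), with 0 unadjusted p under 0.05 in either tool.

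The chaperones that hold the receptors in their hormone-binding form were nearly level. Among 17, the median log2 fold change was -0.03, 0 were called and 1 had an adjusted p under 0.05. That gene was Hspa8, the constitutive heat shock cognate, which fell from 4537 to 4257 normalized counts, by 0.09 ± 0.02 (SE) on the log2 scale (adjusted p = 0.0158, and 0.0828 in edgeR). Hspa4, Ptges3 (the p23 cochaperone) and St13 had log2 fold changes of -0.09 ± 0.05, -0.13 ± 0.08 and 0.08 ± 0.06 (SE), none past the adjustment. Coregulators carry the action of bound receptors to chromatin. Of these, the arginine methyltransferase gene Carm1 had -0.21 ± 0.09, the remodelling ATPase gene Smarca4 -0.09 ± 0.05 and the Mediator subunit gene Med1 -0.11 ± 0.07 (SE), with adjusted p from 0.380 to 0.728.

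**Figure D2:**
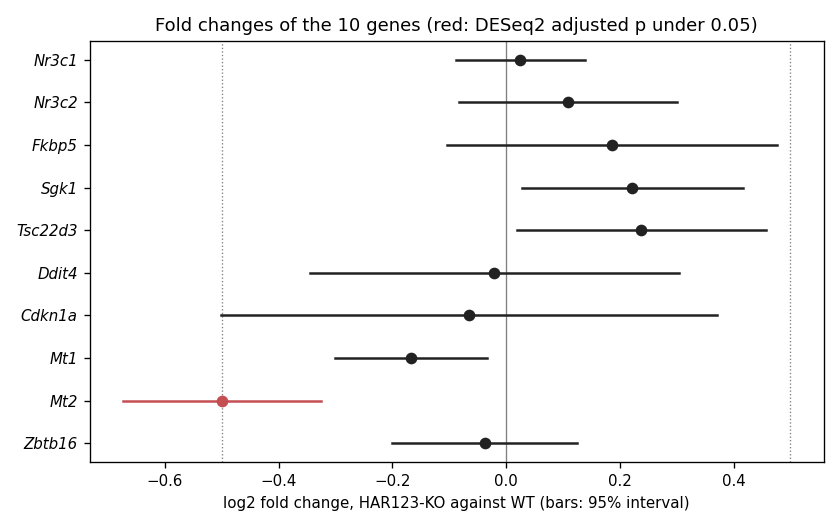
Log2 fold changes of the 10 genes in HAR123-KO against WT (points) with 95% intervals (bars); dotted lines mark the limit of 0.5 in either direction. Mt2 alone has an adjusted p under 0.05 and sits on the lower dotted line, at -0.4998.

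Fkbp5 encodes the immunophilin FKBP51, which lowers the receptor's affinity for hormone and is itself induced by it, closing a feedback loop. It lies on chromosome 17 (ENSMUSG00000024222, 28399094 to 28517527, - strand). Normalized counts were 69.8, 78.2, 80.5 and 70.6 in WT and 104, 84.6, 77.5 and 75.5 in HAR123-KO. Replicate 1 of HAR123-KO stood highest, replicate 2 was also above the WT range, and the other two fell within it. HAR123-KO differed from WT by a log2 fold change of 0.19 ± 0.15 (SE, adjusted p = 0.843), with an interval of -0.10 to 0.48, and across leave-one-out fits it ranged from 0.08 to 0.24. The related immunophilin genes Fkbp1a and Fkbp8, chosen for this comparison after their values were seen, had log2 fold changes of -0.05 ± 0.05 and 0.07 ± 0.05 (SE).

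Sgk1 encodes a serum- and glucocorticoid-induced kinase that raises the surface level of ion channels and transporters. It lies on chromosome 10 (ENSMUSG00000019970, 21882184 to 21999903, + strand) and carries the palindromic element printed above. Normalized counts were 159, 162, 148 and 155 in WT and 184, 179.7, 182 and 179.7 in HAR123-KO. All HAR123-KO values lay above all WT values, and they were close to each other, with an SD of 2.21 beside 5.76 in WT. The log2 fold change was 0.22 ± 0.10 (SE), with an interval of 0.03 to 0.42, an unadjusted p of 0.0255 and an adjusted p of 0.432 (edgeR 0.167). It was larger in size than in 93.3% of the 1624 genes of like level. Sgk3, a paralog, also lay higher in each HAR123-KO library, with a log2 fold change of 0.24 ± 0.13 (SE, adjusted p = 0.604). The kinase is best known for acting on the epithelial sodium channel through Nedd4l. Of 4 genes of that channel and its regulator, 0 had an unadjusted p under 0.05 in DESeq2 or edgeR, and Scnn1a had a log2 fold change of 0.13 ± 0.36 and Nedd4l of 0.04 ± 0.04 (SE).

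Tsc22d3 encodes GILZ, a leucine zipper protein that carries part of the anti-inflammatory action of glucocorticoids. It is X-linked (ENSMUSG00000031431, 140539528 to 140600659, - strand). Normalized counts were 134, 111, 126 and 124 in WT and 139, 151, 142 and 152 in HAR123-KO. The groups were separate, though the gap between WT replicate 1 and HAR123-KO replicate 1 was small. This gave a log2 fold change of 0.24 ± 0.11 (SE), with an interval of 0.02 to 0.46, an unadjusted p of 0.0337 and an adjusted p of 0.482 (edgeR 0.213). Its 3 relatives Tsc22d1, Tsc22d2 and Tsc22d4 had log2 fold changes of 0.01, -0.05 and -0.17, none with an unadjusted p under 0.05.

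Sgk1 and Tsc22d3 lay higher in the HAR123-KO libraries, as did the summed markers of oligodendrocytes, striatal projection neurons and choroid plexus. Ratios to the striatal and choroid plexus sums were not taken. The 8 oligodendrocyte markers summed to 15080 to 15570 normalized counts per WT library and 17130 to 17470 in HAR123-KO, a ratio of means of 1.13, and 4 of the 8 rose past the adjustment (among them Mbp, Cldn11 and Cnp). None was at 0. Divided by that sum within each library, in a comparison chosen after seeing the data, Sgk1 differed between genotypes by 0.05 on the log2 scale (two-sided exact permutation p = 0.314, adjusted over 6 ratios 0.471) and Tsc22d3 by 0.07 (p = 0.457, adjusted 0.486), and in both the groups overlapped.

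Ddit4 encodes REDD1, an inhibitor of mTORC1 that also answers to hypoxia and to the integrated stress response. It lies on chromosome 10 (ENSMUSG00000020108, 59949669 to 59951834, - strand). Normalized counts were 58.5, 65.9, 67.8 and 61.0 in WT and 50.2, 60.9, 66.0 and 73.4 in HAR123-KO. The HAR123-KO libraries enclosed the WT range. The fitted log2 difference was -0.02 ± 0.17 (SE, adjusted p = 0.996), with an interval of -0.35 to 0.30. Genes of its other inducers were set beside it. Of 8 hypoxia targets averaging 10 or more, 0 passed the adjustment, and at an unadjusted p under 0.05 there were 2 in DESeq2 and 3 in edgeR over the whole list of 10 (8.78% and 12.8% of all genes). The DESeq2 share is over genes with an adjusted p, and Ankrd37, among those in DESeq2, had none. Ankrd37 (6.60 to 13.9 normalized counts, log2 fold change 1.08 ± 0.43) and P4ha1 (171.5 to 142.5, -0.27 ± 0.10) pointed in opposite directions, with Ndrg1 at 0.15 ± 0.09 and Bnip3 at -0.11 ± 0.08 (SE). Of 5 ATF4 targets that reached that mean, 0 had an unadjusted p under 0.05 in either tool, the smallest p belonging to the serine synthesis gene Psat1 (0.14 ± 0.09, SE). Phgdh had -0.09 ± 0.10, Chac1 -0.20 ± 0.31 and Asns -0.05 ± 0.09 (SE).

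Cdkn1a encodes p21, an inhibitor of cyclin-dependent kinases that p53 also induces. It lies on chromosome 17 (ENSMUSG00000023067, 29090976 to 29100727, + strand) and was the least counted of the 10. Normalized counts were 37.2, 30.9, 40.7 and 37.4 in WT and 31.7, 46.6, 32.6 and 28.7 in HAR123-KO. Replicate 2 of HAR123-KO was the highest library and replicate 4 the lowest. The log2 fold change was -0.07 ± 0.22 (SE, adjusted p = 0.990), with an interval of -0.50 to 0.37. Of 8 other p53 targets averaging 10 or more, 0 passed the adjustment in either DESeq2 or edgeR and 2 had an unadjusted p under 0.05 in both tools, Zmat3 (-0.14 ± 0.06) and Aen (-0.35 ± 0.17), each lower in all HAR123-KO libraries. Ccng1 and Mdm2 had -0.12 ± 0.08 and 0.11 ± 0.11 (SE).

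The metallothioneins showed the only difference among the 10 genes that passed the adjustment. Mt1 and Mt2 are small cysteine-rich proteins that bind zinc and copper, are induced by metals through Mtf1 and by glucocorticoids, and in brain are found mostly in astrocytes and in cells of the vessel wall. Their genes are neighbours on chromosome 8, both on the + strand, with Mt2 (ENSMUSG00000031762) at 94172664 to 94173568 and Mt1 (ENSMUSG00000031765) at 94179082 to 94180327. No stretch of 25 bases was shared between their annotated transcripts. An opposite-strand RNA, Gm45774, shares 432 exon bases with Mt2 and had 3 counts over all libraries.

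Mt2 had 265, 271, 249.1 and 246 normalized counts in WT and 178, 187, 193 and 168 in HAR123-KO. The highest HAR123-KO library was well below the lowest WT library. Mt2 fell to 0.707 of its WT level (95% interval 0.627 to 0.798), a log2 fold change of -0.50 ± 0.09 (SE, adjusted p = 6.04e-06 in DESeq2, 3.77e-06 in edgeR and 5.93e-05 in limma-voom). That change was larger in size than in 99.7% of the 1452 genes of like level. With each library left out in turn, the log2 fold change ran from -0.53 to -0.47 and the adjusted p from 2.88e-05 to 0.000605.

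Mt1 had 391, 400.5, 375 and 416 normalized counts in WT and 336, 353, 369 and 348 in HAR123-KO. These groups were also separate, with HAR123-KO replicate 3 close beneath WT replicate 3. Between genotypes the log2 fold change was -0.17 ± 0.07 (SE), with an interval of -0.30 to -0.03, an unadjusted p of 0.0138 and an adjusted p of 0.326 (edgeR 0.107). Mt3, the metallothionein of neurons and astrocytes that is little induced by metals or hormone, averaged 448 normalized counts in WT libraries and 446 in HAR123-KO libraries, a log2 fold change of 0.00 ± 0.06 (SE, adjusted p = 0.9995). Its values overlapped, from 410.1 to 471 in WT and from 423 to 474.5 in HAR123-KO. Mt4 had no counts.

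The 2 inducible metallothioneins were also compared with each other within each library. Per kb of exon, the ratio of Mt1 to Mt2 was 0.697, 0.698, 0.711 and 0.798 in WT and 0.890, 0.889, 0.903 and 0.977 in HAR123-KO. Every HAR123-KO library lay above every WT library, and in all 8 Mt2 had the higher level per kb. That order rests on the annotated exon lengths, 1246 bases for Mt1 (its whole span as 1 merged exon) and 588 for Mt2, since Mt1 had more counts in every library; the difference between genotypes does not depend on these lengths. The difference was 0.33 on the log2 scale (two-sided exact permutation p = 0.0286, the smallest that 70 assignments allow), and adjusted over the 2 ratios the p was 0.0571, which does not pass.

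**Figure D3:**
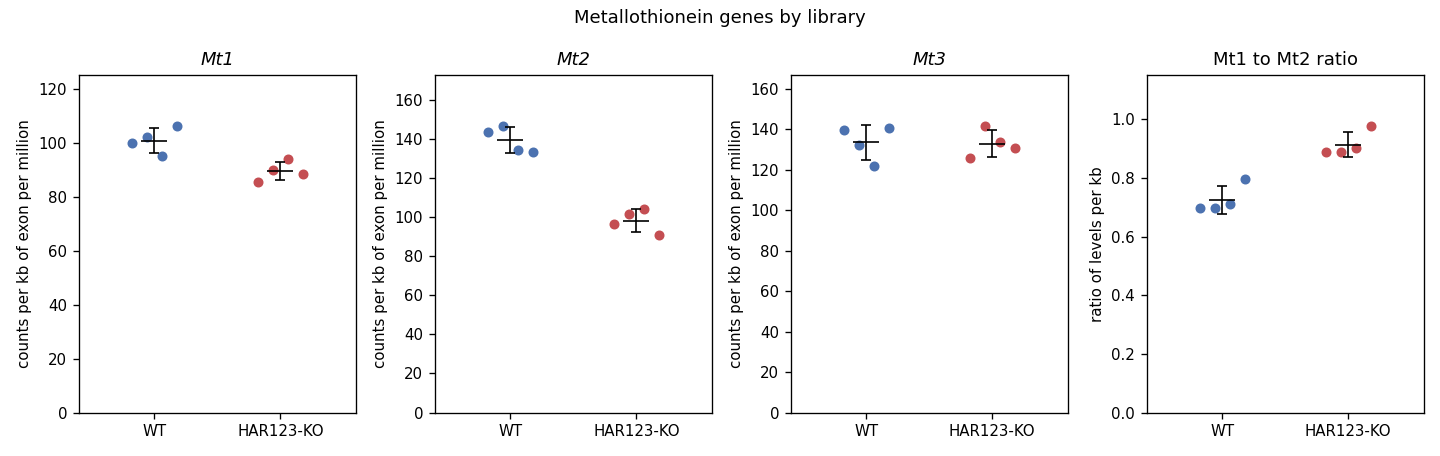
Levels of Mt1, Mt2 and Mt3 per library, in counts per kb of exon scaled to 1000000 counts of nuclear protein-coding genes per library, and the ratio of Mt1 to Mt2 (all axes from 0); points are libraries in replicate order and bars the mean ± SD of 4. Mt2 is lower in every HAR123-KO library, Mt3 overlaps, and the ratio is separate between genotypes.

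Some markers of the cell types that express metallothioneins were also lower in HAR123-KO. The 8 astrocyte markers summed to 23190 to 23920 normalized counts per WT library and 21580 to 22190 in HAR123-KO, a ratio of 0.933, and 3 of them fell past the adjustment (Slc1a2, Slc1a3 and Gja1). Slc1a2 supplied most of that sum, with 18760 of an average 23450 in WT. Of the other 5, Aqp4 had a log2 fold change of -0.15, Gfap of 0.16, and S100b, Aldoc and Aldh1l1 between -0.02 and 0.00, all 5 with overlapping groups. The 7 mural and meningeal markers, some of them from the vessel wall, summed on average to 342 in WT and 351 in HAR123-KO. Of the 6 that averaged 10 or more, 2 had a log2 fold change above 0 and 4 below. Their median was -0.19, with a range of -0.65 to 0.23. The 8 endothelial markers summed to 359 to 412 and 314 to 331, a ratio of 0.846, and all 8 had a log2 fold change below 0 with 0 past the adjustment in DESeq2 or edgeR (2 and 3 had an unadjusted p under 0.05). No marker of either list was at 0. Relative to the astrocyte sum in the same library, in a comparison chosen after seeing the data, Mt2 was lower in HAR123-KO by a difference of -0.40 on the log2 scale, with separate groups (two-sided exact permutation p = 0.0286, adjusted over 6 ratios 0.171). Relative to the endothelial sum its difference was -0.27, and the groups overlapped (exact permutation p = 0.0571, adjusted 0.171). For Mt1 the differences were -0.07 relative to astrocytes (exact permutation p = 0.257, adjusted 0.471) and 0.07 relative to endothelium (p = 0.486, adjusted 0.486), both with overlap.

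**Figure D4:**
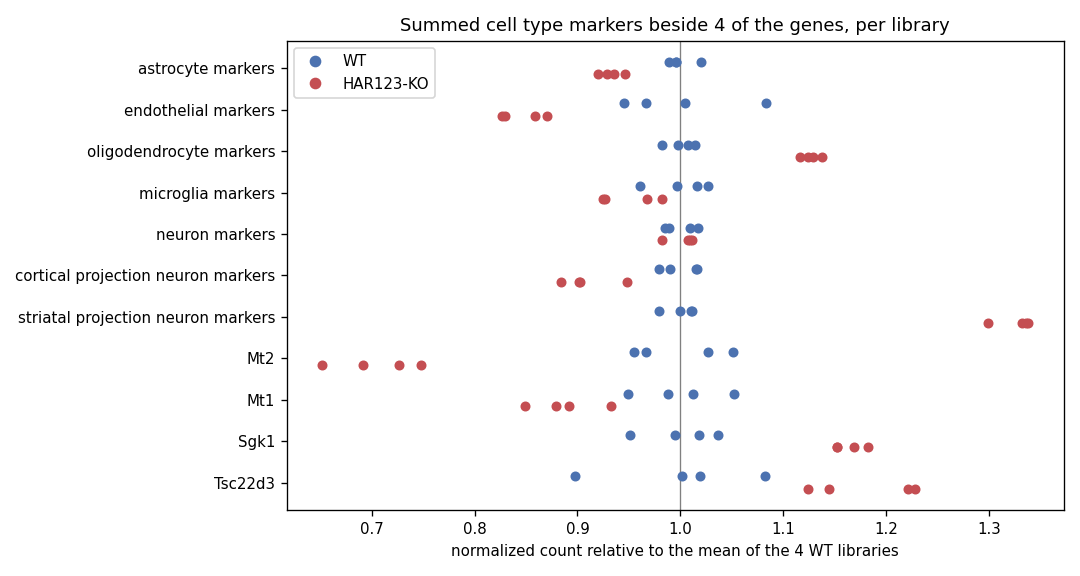
Summed normalized counts of 7 cell type marker lists and normalized counts of Mt2, Mt1, Sgk1 and Tsc22d3, each divided by the mean of the 4 WT libraries (horizontal axis); points are WT (blue) and HAR123-KO (red) libraries. Mt2 in HAR123-KO lies further below 1 than the astrocyte and endothelial sums. Sgk1 and Tsc22d3 lie above 1, as do the oligodendrocyte and striatal projection neuron sums.

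Among 7 genes of metal handling, 0 passed the adjustment in DESeq2 or edgeR, and the median log2 fold change was -0.05. Mtf1, the metal-sensing activator of metallothionein genes, had -0.06 ± 0.12, and Slc30a1, a zinc exporter that it also controls, -0.05 ± 0.12 (SE). The zinc importer gene Slc39a10 was higher in each HAR123-KO library, at 0.11 ± 0.04 (SE, unadjusted p = 0.00904, adjusted p = 0.252). Slc30a3, which loads zinc into synaptic vesicles, had -0.15 ± 0.09 and the copper pump gene Atp7a -0.17 ± 0.18 (SE).

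Zbtb16 encodes PLZF, a zinc finger repressor that is strongly induced by glucocorticoids in several tissues. It lies on chromosome 9 (ENSMUSG00000066687, 48654297 to 48836222, - strand). Normalized counts were 256, 273, 247 and 239 in WT and 260.1, 242.5, 254 and 231 in HAR123-KO. The groups overlapped, with WT replicate 2 above the HAR123-KO range and HAR123-KO replicate 4 below the WT range. On the log2 scale the difference was -0.04 ± 0.08 (SE, adjusted p = 0.981), with an interval of -0.20 to 0.12.

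Compared per kb of exon (all annotated exons merged, scaled to 1000000 counts of nuclear protein-coding genes per library), the levels of the 10 genes in WT spanned from Mt2 to Fkbp5. Mt2 stood at 139 ± 6.64 and Mt1 at 101 ± 4.57, far above Nr3c1 at 22.6 ± 0.845 (SD, n = 4). Zbtb16 followed at 15.2 ± 0.883, Ddit4 at 11.5 ± 0.738 and Sgk1 at 10.1 ± 0.398. Then came Tsc22d3 at 9.07 ± 0.702, Nr3c2 at 9.01 ± 0.561, Cdkn1a at 3.27 ± 0.362 and Fkbp5 at 2.51 ± 0.173. Of the neighbours in this order, Sgk1 and Tsc22d3, and Tsc22d3 and Nr3c2, had overlapping ranges of mean ± 1 SD. In HAR123-KO, Mt2 at 98.1 ± 5.83 and Mt1 at 89.6 ± 3.44 also overlapped in this way, and Sgk1 at 11.8 ± 0.140 took the place of Ddit4 at 11.3 ± 1.76, from which it did not differ beyond the spread. Nr3c1 stood at 22.9 ± 1.498 and Zbtb16 at 14.8 ± 0.770. Tsc22d3 had 10.7 ± 0.482, Nr3c2 9.73 ± 1.10, Cdkn1a 3.12 ± 0.714 and Fkbp5 2.87 ± 0.444 in HAR123-KO (SD, n = 4).

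A wider list of 30 further glucocorticoid response genes was examined in the same fit. Of the 23 that averaged 10 or more normalized counts, 13 had a log2 fold change above 0 and 10 below, with a median of 0.05 beside -0.001 over all genes. Of the 30, 0 were called in DESeq2 or edgeR, 1 had an adjusted p under 0.05 and 7 an unadjusted p under 0.05 in each tool, against the shares of 0.298%, 1.69% and 8.78% of all genes given above for DESeq2. Those shares are over genes with an adjusted p, which 21 of the 30 had. Plin4, among the 7 in DESeq2, had none. In DESeq2, 6 of those 7 were higher in HAR123-KO.

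Per1, a clock gene with a response element for the receptor that is also induced by neuronal activity, was the one past the adjustment. It had 414, 374, 374 and 414 normalized counts in WT and 479, 438, 494 and 458 in HAR123-KO. All HAR123-KO libraries were above all WT libraries. Per1 rose by a log2 fold change of 0.25 ± 0.06 (SE, adjusted p = 0.00979). Klf9, a Krüppel-like factor induced by both corticosteroid and thyroid hormone, had 0.10 ± 0.04, Dusp1, a phosphatase of MAP kinases, 0.43 ± 0.20, and Fam107a, a stress-induced actin regulator, -0.10 ± 0.05 (SE), with adjusted p from 0.407 to 0.467. The 4 genes of the list whose groups did not overlap were all higher in HAR123-KO. They were Per1, Klf9, Klf15 and Errfi1, the last 2 named after their values were seen, with log2 fold changes of 0.33 ± 0.17 and 0.25 ± 0.15 (SE). Non-overlap in this direction was found in 3.77% of all genes.

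Plin4, a lipid droplet coat gene, was also named after its values were seen. It had raw counts of 0, 3, 1 and 2 in WT and 13, 3, 14 and 17 in HAR123-KO. HAR123-KO replicates 1, 3 and 4 were above the WT range and replicate 2 was not. Its fitted log2 difference was 2.94 ± 0.75 (SE), with an unadjusted p of 8.45e-05 and no adjusted p, because the mean lay under the filter limit of 17.6 normalized counts. With the filter off it was called. The study lists Plin4 among its differentially expressed genes of this tissue, at the same limits.

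Since several response genes are also induced by neuronal activity, 10 immediate early genes were set beside them. Of these, 3 passed the adjustment, in mixed directions. Egr1 fell by 0.32 ± 0.05 (adjusted p = 2.24e-08) and Egr3 by 0.21 ± 0.06 (adjusted p = 0.0143), while Nr4a1 rose by 0.36 ± 0.10 on the log2 scale (SE, adjusted p = 0.028). Arc had 0.18 ± 0.08 (SE, adjusted p = 0.467). Their part in the values of Per1 and Sgk1 was not tested.

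The paralogs of the 10 genes gave no call. Of 16, 13 reached a mean of 10, and 0 had an unadjusted p under 0.05 in DESeq2 and 1 in edgeR, with a median log2 fold change of 0.00. Beside Sgk3 and Mt3, Ddit4l had -0.23 ± 0.14, Tsc22d4 -0.17 ± 0.11 and Cdkn1c 0.64 ± 0.40 (SE).

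**Figure D5:**
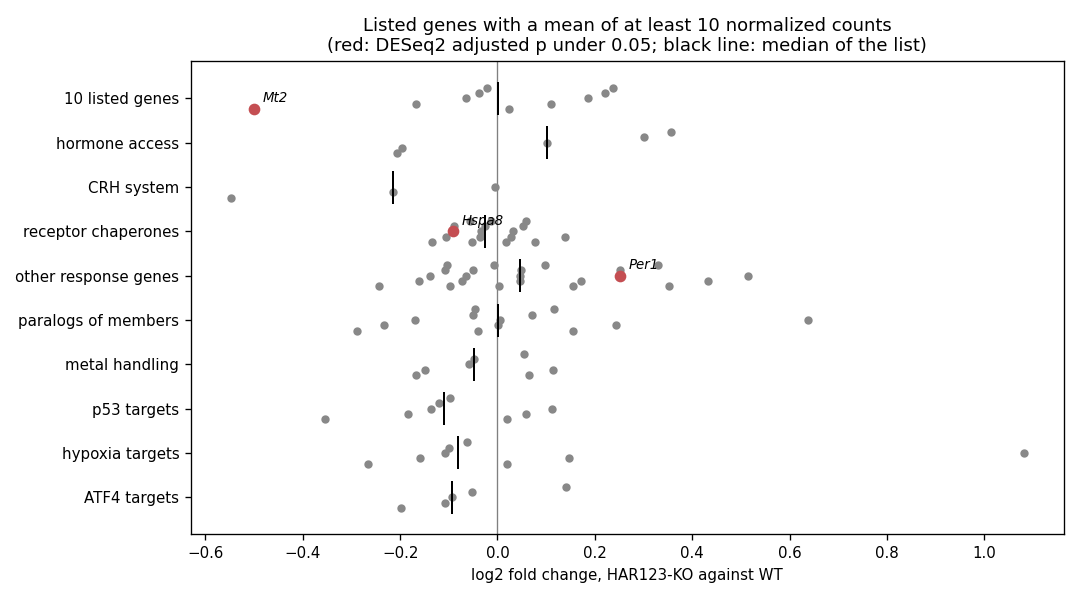
Log2 fold changes (horizontal axis) of the 10 genes and of 9 further lists, for genes averaging 10 or more normalized counts; each point is a gene, black lines are list medians, and red points have a DESeq2 adjusted p under 0.05. The red points are Mt2, Hspa8 and Per1, and the medians of the larger lists lie close to 0.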

How the data were processed

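Total RNA of mouse frontal cortex was depleted of ribosomal RNA and sequenced from directional paired-end libraries, 4 of WT and 4 of HAR123-KO. Per the study's methods and the submitters' processing notes, the authors aligned reads with STAR 2.5.2b to GRCm38 and deposited raw featureCounts counts per gene; the strand and multiple-match settings were not given in the sources used here, so overlapping and antisense genes can share counts. Exon length, also a deposited column, was used with the counts for levels per kb. All 55536 gene IDs matched GENCODE M21 (GRCm38), which gave symbols and 1-based coordinates. Unused columns of per-sample values numbered 0.

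Groups and replicate numbers came from sample titles. Counts were tested with the Wald test of DESeq2 1.42.0 (R 4.3.3). Size factors were medians of ratios, the model held genotype alone, with Benjamini-Hochberg adjustment over all genes kept by the independent filter (tuned to 0.1). The study's limits for this tissue were used (adjusted p under 0.05, absolute log2 fold change over 0.5). A normalized count is a count divided by the library's size factor. Ratios within a library were tested by two-sided exact permutation over 70 assignments (smallest p 0.0286). Alternatives were edgeR 4.0.16, limma-voom (limma 3.58.1), other size factors, filters and limits, a replicate block, and leaving out each library. The steps were tested on simulated data. Intervals are 95% Wald intervals. PCR copies were not marked by molecular tags, and totals of 13528251 to 17051001 counts overstate the depth for messenger RNA.

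The 10 genes, the lists and the tests were chosen with earlier results of these data known. All 10 genes are named. Of every other list of pathway genes, genes called are named together with the 4 of smallest unadjusted p among those averaging 10 or more, plus markers a sentence needs; exceptions are marked. Ddit3, which had 2 rows under its symbol, was left out. Promoter windows were RefSeq's, on GRCm38.p6. Protein sequences were not used here. Some values of the coregulator and cell type lists are not reported here.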

Additional observations from a re-analysis of the deposited data

Results flagged for a closer look

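In each genotype 1 library stood apart from the rest of their group in the ratio of Mt1 to Mt2 per kb of exon (gap to the nearest library over the range of the group, above Dixon's 95% critical value). On the log2 scale, WT replicate 4 was at -0.325 while the other 3 WT libraries lay between -0.521 and -0.492. HAR123-KO replicate 4 was at -0.034 while the other 3 lay between -0.170 and -0.147. Each stood on the high side of its group. Of the 24 groups of 4 values examined, 2 were set apart in this way, where chance gives about 1.2.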

How the results depend on the processing

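Among the 10 genes, the count past both limits was 0, and it became 1, in each case Mt2, with size factors from nuclear protein-coding genes, with a minimum of 10 counts in 4 libraries, with no minimum fold change, and with a replicate block that kept the local dispersion trend (the last chosen after seeing the data). Leaving out single libraries gave 0 to 1, and 1 without WT replicate 3, WT replicate 4, HAR123-KO replicate 2 or HAR123-KO replicate 3. Mt2 lies so near the limit of 0.5 that its log2 fold change crossed it while moving only between -0.531 and -0.461. For the 30 further response genes the count of 0 became 1 with the independent filter off (Plin4) and with no minimum fold change (Per1), and leave-one-out fits gave 0 to 1 (1 without WT replicate 2 or HAR123-KO replicate 2). Over all genes, 38 passed, and 73 in edgeR, 215 with no minimum fold change, 3 under stricter limits, and 11 to 44 with a library left out (11 without HAR123-KO replicate 4, 18 without WT replicate 3).

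Replicate numbers did not pair the libraries (same-number correlations -0.0126 to 0.00543, and 0 of 4 numbers matched best with itself). With the number as a replicate block, 9 genes were past the limits over all genes, or 11 with the local trend, and Mt2 had -0.504 with an adjusted p of 0.204, or -0.503 with 0.0031 under the local trend. Under the block with its own trend, the other genes named as past the adjustment also lost it at nearly the same fold changes (Per1 at 0.249 with an adjusted p of 1, Hspa8, the 3 immediate early genes, and the named astrocyte, oligodendrocyte and cortical markers, with adjusted p from 0.146 for Egr1 to 1). The Mt1 to Mt2 difference of 0.334 had a permutation p of 0.125 within replicate numbers, the smallest that block allows. Without HAR123-KO replicate 4 it was 0.302 (exact permutation p = 0.0571), and over all leave-outs it ran from 0.302 to 0.380.

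Log2 fold changes near 0 turned sign in 4 of the 10 genes, none past the limits. These were Nr3c1 (-0.0108 without HAR123-KO replicate 2, and up to 0.0553 with another library left out), Ddit4 (0.0164 with library totals as size factors, and -0.100 to 0.0692 over leave-outs, with 0.0175 without WT replicate 3), Cdkn1a (0.0129 without HAR123-KO replicate 4, and down to -0.237) and Zbtb16 (0.00126 with library totals). Library totals moved the median of all genes to 0.0374 and the 10 genes to 7 above and 3 below 0. The depth gave standard errors of 0.15 to 0.22 for Fkbp5, Ddit4 and Cdkn1a, so changes within their intervals were not detectable.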

Other observations

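The 7 microglial markers summed to 963 to 1029 normalized counts in WT and 927 to 985 in HAR123-KO, with 0 past the adjustment in DESeq2 or edgeR and 0 and 2 with an unadjusted p under 0.05. The 8 general neuronal markers summed on average to 23560 in WT and 23620 in HAR123-KO, and the 7 mural and meningeal markers to 342 and 351, with 0 past the adjustment in DESeq2 in both and 2 and 1 with an unadjusted p under 0.05 (edgeR 2 and 3). In edgeR and limma-voom 1 of the neuronal markers passed the adjustment. The 6 cortical projection neuron markers had a ratio of 0.909, and 2 of them, Slc17a7 and Cux2, fell past the adjustment.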
